A study of Mus musculus with 12 samples.

Results

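The genes of oxidative phosphorylation were followed in lungs of mice recovering from bleomycin injury with and without intravenous polymer nanoparticles (NP). Members were taken by gene symbol alone: symbols beginning with Nduf, Uqcr, Atp5, Cox4 to Cox8, mt-Nd, mt-Co, mt-Atp or mt-Cytb, together with Sdha, Sdhb, Sdhc, Sdhd and Cyc1. After 14 symbols containing -ps were left out, 112 of 55487 genes were members, 99 encoded in the nucleus and 13 in the mitochondrial genome. The nuclear members comprised 49 genes of complex I (8 of them Ndufaf assembly factors), 4 of complex II, 9 of complex III, 19 of complex IV and 18 of complex V. The mitochondrial genome supplied 7 members of complex I, 1 of complex III, 3 of complex IV and 2 of complex V. A filter on low counts was passed by 106 members, 93 nuclear and 13 mitochondrially encoded, and every test below rests on those 106.

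Oxidative phosphorylation passes electrons from NADH and succinate through complexes I to IV of the inner mitochondrial membrane to oxygen, and complex V, the ATP synthase, makes ATP from the proton gradient that this builds. Most subunits are encoded by nuclear genes that are transcribed one by one, translated in the cytosol and imported. The catalytic cores also need the few proteins encoded by mitochondrial DNA, which is transcribed inside the organelle as long precursors that are then processed into single messages. In the lung, alveolar type 2 cells are known for abundant mitochondria, which serve surfactant production.

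Each library came from the lungs of a separate mouse, a wild-type C57BL/6J male aged 10 weeks, and all mice, those of Day 14 included, had received bleomycin by the oropharyngeal route (0.0125 U per mouse, about 0.5 U/kg). The 3 groups of 4 mice were lungs at day 21 after NP, lungs at day 21 after vehicle, and lungs at day 14 with no treatment beyond bleomycin. The NP were particles of 609.22 ± 15.30 nm with a core of poly(lactide-co-glycolide) and a surface of poly(ethylene-alt-maleic anhydride), injected behind the eye at 2 mg a dose on each of the 5 days 14 to 18. Vehicle was phosphate-buffered saline by the intravenous route, and no uninjured lung was among the samples. Polyadenylated RNA of all 5 lobes, freed of trachea and large airways, was sequenced. In such whole-organ RNA, fewer cells of a type and less RNA per cell cannot be told apart.

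The libraries held 24138582 to 28910459 counts in the NP group, 28001006 to 36208498 in the vehicle group and 25706260 to 42714693 in the Day 14 group. Levels of one gene are given as CPM, counts scaled to library size, in which a floor of 3 reads equals 0.0702 to 0.124 CPM and covers counting error only. Lung epithelial and endothelial markers were present in every library, with a summed level of 136525 to 159278 TPM (transcript abundance corrected for length and library size) in NP lungs, 139286 to 156661 TPM in vehicle lungs and 122903 to 129260.1 TPM in Day 14 lungs, mostly from the club cell gene Scgb1a1. Differences between groups were tested with edgeR's quasi-likelihood test over 17909 genes, and a gene is called where its Benjamini-Hochberg adjusted p is under 0.05. Both day 21 groups were compared with the same 4 Day 14 libraries, so these 2 sets of values are not independent.

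Levels between genes were compared in TPM. The mitochondrially encoded members were the most abundant, and 11 of 13 averaged more TPM over the 12 libraries than any nuclear member. The 11 include mt-Atp8, whose TPM is not interpretable as it stands, as set out below. mt-Co1, the catalytic subunit of complex IV, averaged 10752 ± 810.1 TPM in NP lungs, 10155 ± 234 in vehicle lungs and 9322 ± 794 in Day 14 lungs (SD, n = 4 each). mt-Cytb, the only mitochondrially encoded subunit of complex III, followed with 5720.4 ± 508 TPM in NP lungs, 5462 ± 142 in vehicle lungs and 4819 ± 252 in Day 14 lungs. Among nuclear members the highest level was that of Atp5b, the catalytic beta subunit of ATP synthase, with 644 ± 28.4 TPM in NP lungs, 733 ± 29.1 in vehicle lungs and 763 ± 87.5 in Day 14 lungs. It was followed by Cox4i1 (mean over all libraries 611 TPM), Cox6c (518 TPM), Atp5e (507 TPM) and Atp5md (501.2 TPM), and the Day 14 ranges of Cox6c, Atp5e and Atp5md overlapped one another, so that their order is within the spread. In all, 59 of 99 nuclear members averaged at least 100 TPM and 5 averaged under 1 TPM.

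The 6 members that failed the filter were near 0: Cox8c and a second identifier of Atp5o were listed at 0 in every library, and Ndufa11b, Ndufs6b, Cox6c2 and Cox7b2 reached at most 0.62, 1.18, 6.83 and 0.21 TPM in any library. Ndufa11b, Ndufs6b, Cox6c2 and, among tested members, Ndufb4c are annotated as processed pseudogenes, copies of messages inserted elsewhere in the genome. Ndufb4c averaged 221 TPM over all libraries, and reads of such a copy may be shared with its parent gene Ndufb4, so the values of both are uncertain.

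One level is not interpretable as it stands. mt-Atp8, a small subunit of complex V, had 28444, 30465, 25111 and 30979.5 TPM in NP lungs, 27504, 27462, 31263 and 29846 in vehicle lungs and 26439.7, 18232, 26803 and 25469 in Day 14 lungs, above mt-Co1 in every library. By reads it was among the lowest mitochondrially encoded members, with 129 ± 7.54 CPM in NP lungs, 139 ± 16.5 in vehicle lungs and 130.5 ± 33.2 in Day 14 lungs. Its annotated transcript has 204 bases, shorter than the mean fragment of the libraries, which left an effective length of 6.005 to 9.65 bases as the divisor behind its TPM. The transcript is shown because it also shares its last 43 bases (capitals) with the start of mt-Atp6, a membrane subunit of the same complex, so that reads there could belong to either gene. It is read from GRCm38 with GENCODE M21 models, chrM:7766-7969, on the heavy-strand transcript (+), and mt-Atp6 begins at position 7927.
mt-Atp8: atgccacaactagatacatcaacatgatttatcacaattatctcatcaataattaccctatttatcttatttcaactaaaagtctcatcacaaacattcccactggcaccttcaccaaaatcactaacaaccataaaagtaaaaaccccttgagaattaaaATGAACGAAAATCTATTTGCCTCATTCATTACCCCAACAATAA
The next shortest messages, mt-Nd4l (effective length 42.9 to 60.5 bases) and mt-Nd3 (75.9 to 99.8 bases), have the same difficulty to a lesser degree, and mt-Nd4l shares 7 bases with mt-Nd4. Summed mitochondrial levels are therefore given over the other 10 genes.

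Summed over members, nuclear transcripts were lower and mitochondrial transcripts higher on average in both day 21 groups than at Day 14. The 99 nuclear members summed to 15561, 14698, 14975 and 14746 TPM in the NP lungs, 16009, 16260.2, 15757 and 15870.5 TPM in the vehicle lungs and 17689, 18464, 16954 and 16084 TPM in the Day 14 lungs. All 4 NP sums lay below all vehicle and Day 14 sums, while the vehicle sums overlapped the lowest Day 14 library, replicate 4. The 10 mitochondrially encoded members summed to 40082, 42046, 35617 and 41583 TPM in the NP lungs, 36786, 39471, 37491 and 37699 TPM in the vehicle lungs and 32832.5, 33533, 33367 and 36741 TPM in the Day 14 lungs. Every vehicle sum exceeded every Day 14 sum, and NP replicate 3 fell within the Day 14 range. The ratio of mitochondrial to nuclear TPM was 2.58, 2.86, 2.38 and 2.82 in the NP lungs, 2.298, 2.43, 2.38 and 2.38 in the vehicle lungs and 1.86, 1.82, 1.97 and 2.28 in the Day 14 lungs. No day 21 ratio overlapped the Day 14 range, although the lowest vehicle ratio exceeded the highest Day 14 ratio by less than the spread within either group, and the NP and vehicle ranges overlapped. These sums and ratios are descriptions and were not tested.

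**Figure D1:**
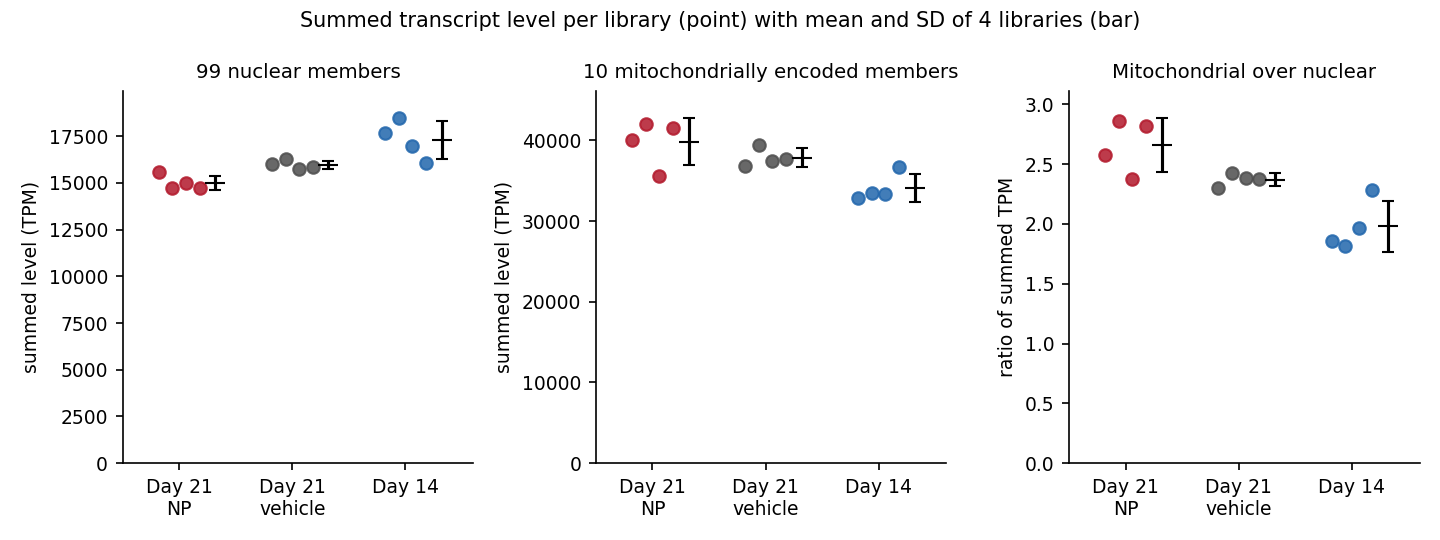
Summed level of 99 nuclear members (left, TPM), of 10 mitochondrially encoded members (middle, TPM; mt-Atp8, mt-Nd4l and mt-Nd3 left out) and their ratio (right), with one point per library and bars for the mean and SD of 4 libraries. Nuclear sums are lowest in the NP lungs, 14698 to 15561 TPM, and the ratio is lowest in the Day 14 lungs, 1.82 to 2.28.

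Set against Day 14, the NP lungs had higher levels of 4 mitochondrially encoded messages, mt-Nd2, mt-Nd5, mt-Nd4 and mt-Cytb, and lower levels of 45 nuclear ones, with 1 nuclear member higher. The comparison covers the week in which NP were given, and time and treatment cannot be told apart in it. Of all genes tested 14.7% were called, 6.16% higher and 8.56% lower, with a median log2 fold change of 0.0062. Of the 93 nuclear members 46 were called (49.5%), and of the 13 mitochondrially encoded members 4 (30.8%). The median log2 fold change was −0.20 over the nuclear members, of which 86 were negative, and 0.14 over the mitochondrially encoded members, of which 10 were positive.

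The messages for core subunits of complex I led the mitochondrial side. mt-Nd2, a proton-pumping subunit of the membrane arm, had 1476, 1517, 1428 and 1617 CPM in the NP lungs, 1428, 1409, 1385 and 1405 CPM in the vehicle lungs and 1166, 1096, 1176 and 1265 CPM in the Day 14 lungs. Every day 21 library lay above every Day 14 library, and mt-Nd2 rose in NP lungs by 0.36 on the log2 scale (SE 0.064, adjusted p = 0.00338). In GRCm38 it lies at chrM:3914-4951 (ENSMUSG00000064345). mt-Nd5 (chrM:11742-13565, ENSMUSG00000064367), the pump at the far end of the same arm, had 1958, 2154, 1812 and 2231 CPM in the NP lungs, 1794, 1993, 2009.5 and 1943 CPM in the vehicle lungs and 1625, 1237, 1549.6 and 1671 CPM in the Day 14 lungs. Both day 21 groups stood above every Day 14 library, with Day 14 replicate 2 the lowest, and mt-Nd5 rose by 0.42 on the log2 scale (SE 0.097, adjusted p = 0.0118) in NP lungs. mt-Nd4, the pump between them, had 2785, 3021, 2643 and 3050.4 CPM in the NP lungs, 2668, 2691, 2680.2 and 2854 CPM in the vehicle lungs and 2324, 2257, 2379 and 2641 CPM in the Day 14 lungs. The NP libraries all lay above the Day 14 ones, the closest pair 2643 and 2641 CPM, and mt-Nd4 rose by 0.26 on the log2 scale (SE 0.073, adjusted p = 0.0296), a call that was lost without Day 14 replicate 1 or 3 or NP replicate 2 or 4 (adjusted p = 0.0763 to 0.0871) and with the 2 groups alone (0.0634). mt-Cytb had 3341, 3502, 2932 and 3556 CPM in the NP lungs and 2886, 2800.4, 2756 and 2982 CPM in the Day 14 lungs, where NP replicate 3 overlapped Day 14 replicate 4. Its rise of 0.22 on the log2 scale (SE 0.071, adjusted p = 0.0487) lost its call without any one of 10 libraries (adjusted p = 0.0519 to 0.134), all but NP replicate 3 and Day 14 replicate 4, and in 6 of the 10 other settings (0.0521 to 0.102). mt-Nd2 and mt-Nd5 kept their calls without each library and in each of the 10 other settings.

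The other 9 mitochondrially encoded members did not pass. mt-Nd1, the subunit next to the quinone site of complex I, differed by 0.22 (adjusted p = 0.0526). mt-Nd6 differed by 0.14 (adjusted p = 0.323). It alone among the members is transcribed from the light strand of mitochondrial DNA, and the strand setting of the counting was not given in the sources used here, so whether its reads include heavy-strand precursors was not tested. The catalytic core of complex IV differed by 0.19 (adjusted p = 0.11) for mt-Co1, 0.098 (adjusted p = 0.559) for mt-Co2 and −0.017 (adjusted p = 0.920) for mt-Co3. mt-Atp6 differed by 0.036 (adjusted p = 0.823) and mt-Atp8 by −0.021 (adjusted p = 0.942). The shortest messages of complex I, mt-Nd3 and mt-Nd4l, differed by −0.18 (adjusted p = 0.266) and 0.029 (adjusted p = 0.961). With the counts adjusted for each library's effective lengths, an alternative chosen after seeing the data, the median over the 13 members was 0.23. In that fit 12 were positive and 3 were called (23.1%, against 10% of all genes).

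On the nuclear side the falls reached every complex. Complex I had 16 of 47 tested members lower and 0 higher, and 0 of 8 Ndufaf assembly factors were called (medians −0.20 over the 39 other members and −0.018 over the 8 factors). Ndufa1 and Ndufa3, accessory subunits of the membrane arm, had the smallest p of this complex. Ndufa1 had 21.7, 19.1, 20.1 and 18.2 CPM in the NP lungs, 23.5, 22, 23.6 and 23.0 CPM in the vehicle lungs and 31.0, 27.3, 25.9 and 23.4 CPM in the Day 14 lungs. The NP libraries lay below all others, and NP lungs differed from Day 14 lungs by −0.45 on the log2 scale (SE 0.083, adjusted p = 0.00399). Ndufa3 had 27.3, 25.8, 26.6 and 23.5 CPM in the NP lungs, 28.2, 28.5, 29.1 and 28.3 CPM in the vehicle lungs and 38.5, 39.3, 32.3 and 30.2 CPM in the Day 14 lungs, with no overlap between any pair of groups, and differed by −0.44 on the log2 scale (SE 0.081, adjusted p = 0.00392) in NP lungs. Large core subunits of the matrix arm gave smaller differences that did not pass, at 0.055 (adjusted p = 0.518) for Ndufs1 and −0.096 (adjusted p = 0.213) for Ndufv1. The pseudogene Ndufb4c and Ndufa4, taken with complex I by symbol, were counted among the 16.

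Complex II, which also belongs to the citric acid cycle, had its membrane anchors Sdhc (−0.18, adjusted p = 0.0445) and Sdhd (−0.19, adjusted p = 0.0215) lower. Its catalytic subunits Sdha (0.049, adjusted p = 0.570) and Sdhb (−0.14, adjusted p = 0.142) did not pass. In complex III 6 of 9 members were lower, with the cytochrome c1 gene Cyc1 at −0.20 (adjusted p = 0.0420), the core protein Uqcrc1 at −0.21 (adjusted p = 0.0246) and the Rieske iron-sulfur protein Uqcrfs1 at −0.17 (adjusted p = 0.0468). Sdhc and Cyc1 each lost the call without any one of 10 libraries (adjusted p up to 0.128 and 0.116), and Uqcrfs1 without any one of 11 (up to 0.119). Sdhd lost it without Day 14 replicate 1 or 3 or NP replicate 2 or 4 (adjusted p = 0.0592 to 0.0711), and Uqcrc1 without Day 14 replicate 3 or NP replicate 1 or 4 (0.0587 to 0.0779). The small accessory subunits Uqcrq (−0.46, adjusted p = 0.00818) and Uqcr11 (−0.41, adjusted p = 0.0110) kept theirs without each library, and Uqcrq also in each of the 10 other settings, while Uqcr11 lost its call with limma on log2(TPM + 0.1) (adjusted p = 0.0772).

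Complex IV had 10 of 16 tested members lower and 1 higher. Cox7a2 (GRCm38 chr9:79755361-79759878, ENSMUSG00000032330), the widely expressed form of subunit 7a, had 37.8, 35.4, 34.8 and 34.9 CPM in the NP lungs, 41.6, 41.3, 40.8 and 40.4 CPM in the vehicle lungs and 50.5, 50.9, 44.7 and 42.8 CPM in the Day 14 lungs. Every NP library lay below every vehicle library and every vehicle library below every Day 14 library, and NP lungs differed from Day 14 lungs by −0.40 on the log2 scale (SE 0.061, adjusted p = 0.00147). Cox5a (chr9:57521274-57532426, ENSMUSG00000000088), a nuclear subunit on the matrix side of complex IV, had 41.3, 38.8, 42.9 and 36.6 CPM in the NP lungs, 42.5, 43.2, 41.0 and 41.9 CPM in the vehicle lungs and 54.6, 56.5, 48.4 and 49.1 CPM in the Day 14 lungs. Both day 21 groups lay below Day 14 and overlapped each other, and the NP difference was −0.39 on the log2 scale (SE 0.064, adjusted p = 0.00236). Cox4i1, a subunit that binds nucleotides, fell by 0.33 on the log2 scale (SE 0.071, adjusted p = 0.00898), and Cox6b1 by 0.34 on the log2 scale (SE 0.068, adjusted p = 0.00544). Cox6b2, known as a testis form of subunit 6b, gave the lowest called value, −0.67 on the log2 scale (SE 0.12, adjusted p = 0.00333). Cox6c (−0.27, adjusted p = 0.0483) lost its call without any one of 10 libraries (adjusted p up to 0.136), and Cox8a (−0.30, adjusted p = 0.0162) without Day 14 replicate 1 or NP replicate 2 or 4 (0.0501 to 0.0549). Ndufa4, named for complex I and counted there but now known as a subunit of complex IV, fell by 0.25 (adjusted p = 0.0344), lost without any one of 7 libraries (adjusted p up to 0.0930).

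Complex V had 11 of 17 tested members lower, and all 17 were negative. Atp5e, the epsilon subunit in the central stalk, had 47.3, 42.0, 46.2 and 39.4 CPM in the NP lungs, 53.1, 52.8, 52.6 and 52.5 CPM in the vehicle lungs and 69.6, 69.0, 61.4 and 48.9 CPM in the Day 14 lungs. NP libraries lay below all vehicle and Day 14 libraries, while Day 14 replicate 4 fell below every vehicle library. The NP difference from Day 14 was −0.51 on the log2 scale (SE 0.096, adjusted p = 0.00437). The 3 genes for the same c subunit of the rotor ring fell together, Atp5g1 by 0.33 (adjusted p = 0.00415), Atp5g2 by 0.37 (adjusted p = 0.00450) and Atp5g3 by 0.33 (adjusted p = 0.00376). The small membrane subunits Atp5md (−0.39, adjusted p = 0.00225) and Atp5mpl (−0.41, adjusted p = 0.00670) fell as well. Atp5mpl lost its call with limma on log2(TPM + 1) (−0.25, adjusted p = 0.0708), on log2(TPM + 0.1) (−0.25, adjusted p = 0.124) and with effective-length offsets (−0.27, adjusted p = 0.0787). The catalytic subunits gave smaller values, Atp5b −0.17 (adjusted p = 0.0545) and Atp5a1 −0.090 (adjusted p = 0.240), and did not pass. Atp5o, the stalk protein that holds the catalytic head, fell by 0.21 (adjusted p = 0.0320) and lost the call without any one of 7 libraries (adjusted p up to 0.0902).

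Of the 46 nuclear calls 22 held without each library in turn, and 15 of those also in each of the 10 other settings: Ndufa1, Ndufa3, Ndufa11, Ndufb6, Uqcrq, Cox4i1, Cox5a, Cox6b1, Cox6b2, Cox7a2, Atp5e, Atp5g1, Atp5g2, Atp5g3 and Atp5md. The count moved with single libraries, and so did that over all genes. It was 23 without NP replicate 4 (7.63% of all genes called), 27 without NP replicate 2 (8.95%) or Day 14 replicate 1 (8.66%), and 57 without Day 14 replicate 4 (15.9%), against 46 and 14.7% with all libraries. The mitochondrial count of 4 was 2 without NP replicate 2 or 4 or Day 14 replicate 1 or 3 (7.5% to 8.95% of all genes called). It was 6 without NP replicate 3 (16.2%).

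**Figure D2:**
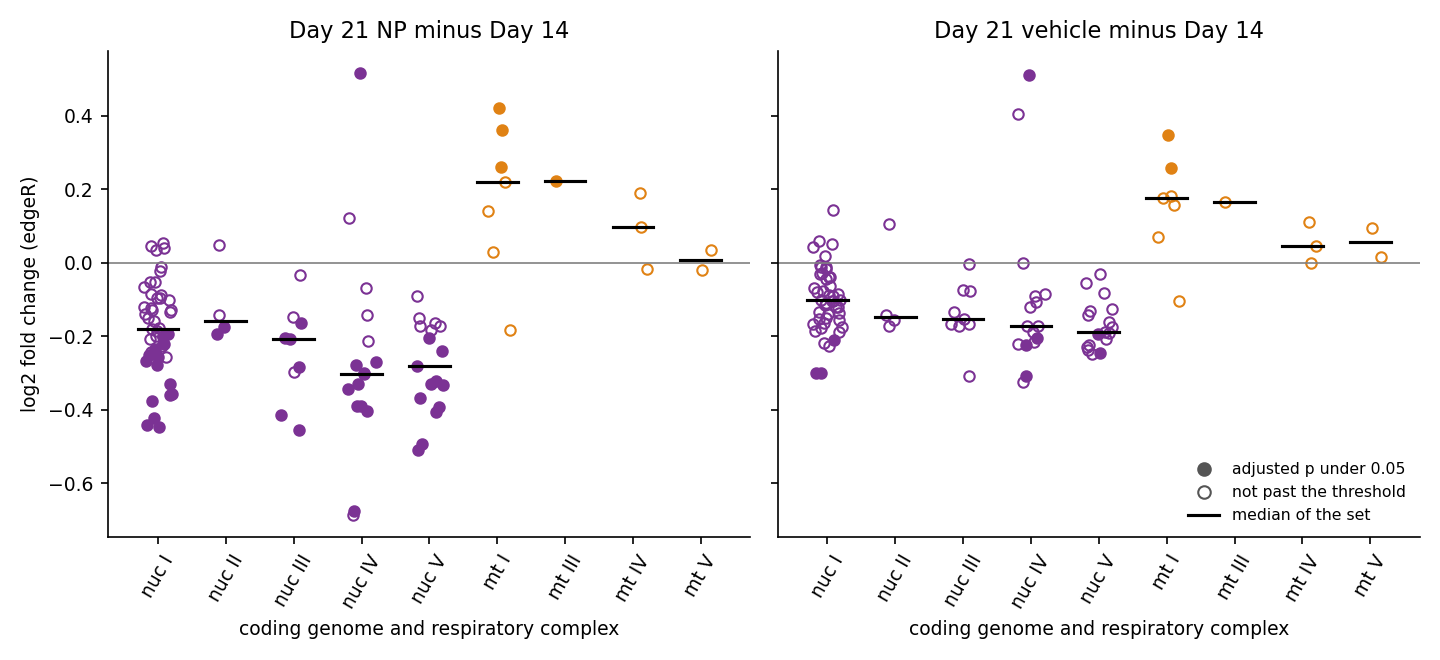
Log2 fold changes from Day 14 of the 106 tested members by coding genome and complex (nuc, nuclear; mt, mitochondrially encoded; nuc I includes the 8 assembly factors), for NP lungs (left) and vehicle lungs (right). Filled points have an adjusted p under 0.05 and lines mark medians; the nuclear medians lie below 0 and the mitochondrial medians above it in both panels, and the high nuclear point of complex IV in each is Cox6a2.

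In vehicle lungs, at the same day without NP, 8 nuclear members were lower than at Day 14 and 1 was higher, and 2 mitochondrially encoded members were higher. Of all genes tested 10.3% were called, 3.79% higher and 6.51% lower. The 9 nuclear calls are 9.68% of 93 tested, close to that background, and the 2 mitochondrial calls are 15.4% of 13. The median log2 fold change was −0.13 over the nuclear members, 85 of them negative, and 0.11 over the mitochondrially encoded members, 11 of them positive, against 0.0031 over all genes. All 11 of these members were also called in NP lungs.

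The 8 lower genes were spread over complexes I, IV and V. Cox5a fell by 0.31 on the log2 scale (SE 0.064, adjusted p = 0.0104) in the vehicle lungs and kept its call without each library and in each of the 10 other settings. For the other nuclear members the call hung on single libraries. Ndufa11 (−0.30, adjusted p = 0.0376), Ndufa3 (−0.30, adjusted p = 0.0321) and Ndufa10 (−0.21, adjusted p = 0.0422) of complex I lost theirs without any one of 8, 6 and 9 libraries (adjusted p up to 0.09997, 0.1005 and 0.148). Cox6a1 (−0.22, adjusted p = 0.0432) and Cox7a2 (−0.20, adjusted p = 0.0472) of complex IV lost theirs without any one of 9 and 11 libraries (adjusted p up to 0.125 and 0.138). Atp5g1 (−0.24, adjusted p = 0.0237) and Atp5o (−0.19, adjusted p = 0.0482) of complex V lost theirs without any one of 5 and 12 (adjusted p up to 0.0712 and 0.159). With limma on log2(TPM + 0.1) each of these 7 lost its call (adjusted p = 0.0559 to 0.310). The nuclear count was 1 without vehicle replicate 1 or 3 (4.11% and 4.78% of all genes called), 2 without vehicle replicate 2 (7.78%) or Day 14 replicate 1, 2 or 3 (5.58%, 11.1% and 3.96%), 3 without vehicle replicate 4 (9.04%) or NP replicate 1 (8.58%), 5 without NP replicate 2 (9.17%), and 25 without Day 14 replicate 4 (10.7%).

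On the mitochondrial side mt-Nd2 rose by 0.26 on the log2 scale (SE 0.064, adjusted p = 0.0229) and mt-Nd5 by 0.35 on the log2 scale (SE 0.097, adjusted p = 0.0366) in vehicle lungs, with all vehicle libraries above all Day 14 libraries for both. mt-Nd2 lost the call without vehicle replicate 1 or 3 or Day 14 replicate 1 or 3 (adjusted p = 0.0546 to 0.0645), and mt-Nd5 without any vehicle library or Day 14 replicate 1 or 3 (0.0547 to 0.0959) and with limma on log2(TPM + 0.1) (0.0930). mt-Nd4 (0.18, adjusted p = 0.122) and mt-Cytb (0.16, adjusted p = 0.149) did not pass, although their vehicle and Day 14 ranges did not overlap. The remaining values ran from −0.10 for mt-Nd3 to 0.18 for mt-Nd4l, with mt-Nd1 at 0.16, mt-Co1 at 0.11, mt-Atp8 at 0.095, mt-Nd6 at 0.071, mt-Co3 at 0.047, mt-Atp6 at 0.017 and mt-Co2 at −0.00054. The mitochondrial count was 0 without Day 14 replicate 1 or 3 or vehicle replicate 1 or 3 (3.96% to 5.58% of all genes called). It was 1 without vehicle replicate 2 or 4 (7.78% and 9.04%).

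The direct question of the treatment is NP against vehicle, both at day 21. By edgeR's quasi-likelihood test 0 members were called, and 0 of all genes (0% of 17909). At an unadjusted p under 0.05 there were 16 of 93 nuclear members and 0 of 13 mitochondrially encoded ones, against 762 of all genes, 4.25%. DESeq2 called 0 members and 19 genes in all, and limma on log2(TPM + 0.1) called 0 members and 1 gene. The median log2 fold change was −0.084 over the nuclear members, 83 of them negative, and 0.061 over the mitochondrially encoded ones. For 21 nuclear members and 1 mitochondrially encoded member, mt-Nd2, the 4 libraries of one group lay wholly on one side of the other, against 3.55% of all genes. The closest mt-Nd2 pair, NP replicate 3 and vehicle replicate 1, was equal to the nearest whole CPM.

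The 5 members of smallest p are given as values. Cox7a2 differed by −0.20 (95% confidence interval −0.33 to −0.067, adjusted p = 0.902), with all NP libraries below all vehicle libraries. Atp5md differed by −0.20 (−0.34 to −0.062, adjusted p = 0.944), with 32.8, 29.8, 31.9 and 29.2 CPM in NP lungs and 34.3, 36.7, 35.7 and 35.2 CPM in vehicle lungs. Cox6b2 differed by −0.35 (−0.61 to −0.092, adjusted p = 0.950) and its ranges overlapped. Atp5e differed by −0.27 (−0.48 to −0.065, adjusted p = 0.981) with no overlap, and Cox7c, another small subunit of complex IV, by −0.27 (−0.47 to −0.063, adjusted p = 0.992), also with no overlap. mt-Nd2 differed by 0.10 (−0.035 to 0.24, adjusted p = 0.999) and mt-Nd5 by 0.076 (−0.13 to 0.28, adjusted p = 0.999). The intervals of both cover 0.

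Several subunits of complex IV exist as a widely expressed form and a form of particular tissues. The widely expressed form was the more abundant in each of 4 such pairs. Cox6a2 (GRCm38 chr7:128205435-128206387, ENSMUSG00000030785), the heart and skeletal muscle form of subunit 6a, was the only called nuclear member that was higher at day 21, with 24.9, 19.9, 27.8 and 24.9 TPM in the NP lungs, 26.5, 20.3, 23.6 and 25.5 TPM in the vehicle lungs and 19.1, 16.2, 12.5 and 17.5 TPM in the Day 14 lungs. In TPM every day 21 library lay above every Day 14 library. In CPM, the scale of the test, Day 14 replicate 1 (5.46 CPM) lay above NP replicate 2 (5.32 CPM) and vehicle replicate 2 (5.33 CPM). It rose by 0.52 on the log2 scale (SE 0.15, adjusted p = 0.0370) in NP lungs and by 0.51 on the log2 scale (SE 0.15, adjusted p = 0.0454) in vehicle lungs. The calls were lost without any one of 7 libraries in NP lungs (adjusted p = 0.0519 to 0.104) and of 8 libraries in vehicle lungs (0.0554 to 0.13), and also with limma on log2(TPM + 0.1) and with the 2 groups alone (0.0503 and 0.0630 in NP lungs, 0.0761 and 0.0531 in vehicle lungs).

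The other muscle forms did not pass in any comparison. Cox8b had 12.2, 11.4, 10.1 and 15.4 TPM in the NP lungs, 16.4, 7.81, 18.4 and 13.3 TPM in the vehicle lungs and 11, 11.2, 8.32 and 9.14 TPM in the Day 14 lungs, and differed from Day 14 by 0.12 (adjusted p = 0.814) in NP lungs and 0.40 (adjusted p = 0.371) in vehicle lungs. Cox7a1 had 16.8, 19.2, 6.65 and 23.4 TPM in the NP lungs, 20.8, 22.3, 33.4 and 24.7 TPM in the vehicle lungs and 24.9, 30.6, 25.1 and 15.7 TPM in the Day 14 lungs, with the lowest value, 6.65 TPM, in NP replicate 3. It differed from Day 14 by −0.69 (adjusted p = 0.146) in NP lungs and −0.0015 (adjusted p = 0.998) in vehicle lungs. The lung and low-oxygen form Cox4i2 averaged 102 ± 1.70 TPM in NP lungs, 104 ± 4.49 in vehicle lungs and 109 ± 13.4 in Day 14 lungs, and did not pass against Day 14 at −0.14 (adjusted p = 0.254) in NP lungs and −0.11 (adjusted p = 0.415) in vehicle lungs. Ndufa4l2, a paralog of Ndufa4 known to be induced at low oxygen, differed from Day 14 by −0.14 (adjusted p = 0.305) in NP lungs and −0.070 (adjusted p = 0.646) in vehicle lungs.

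**Figure D3:**
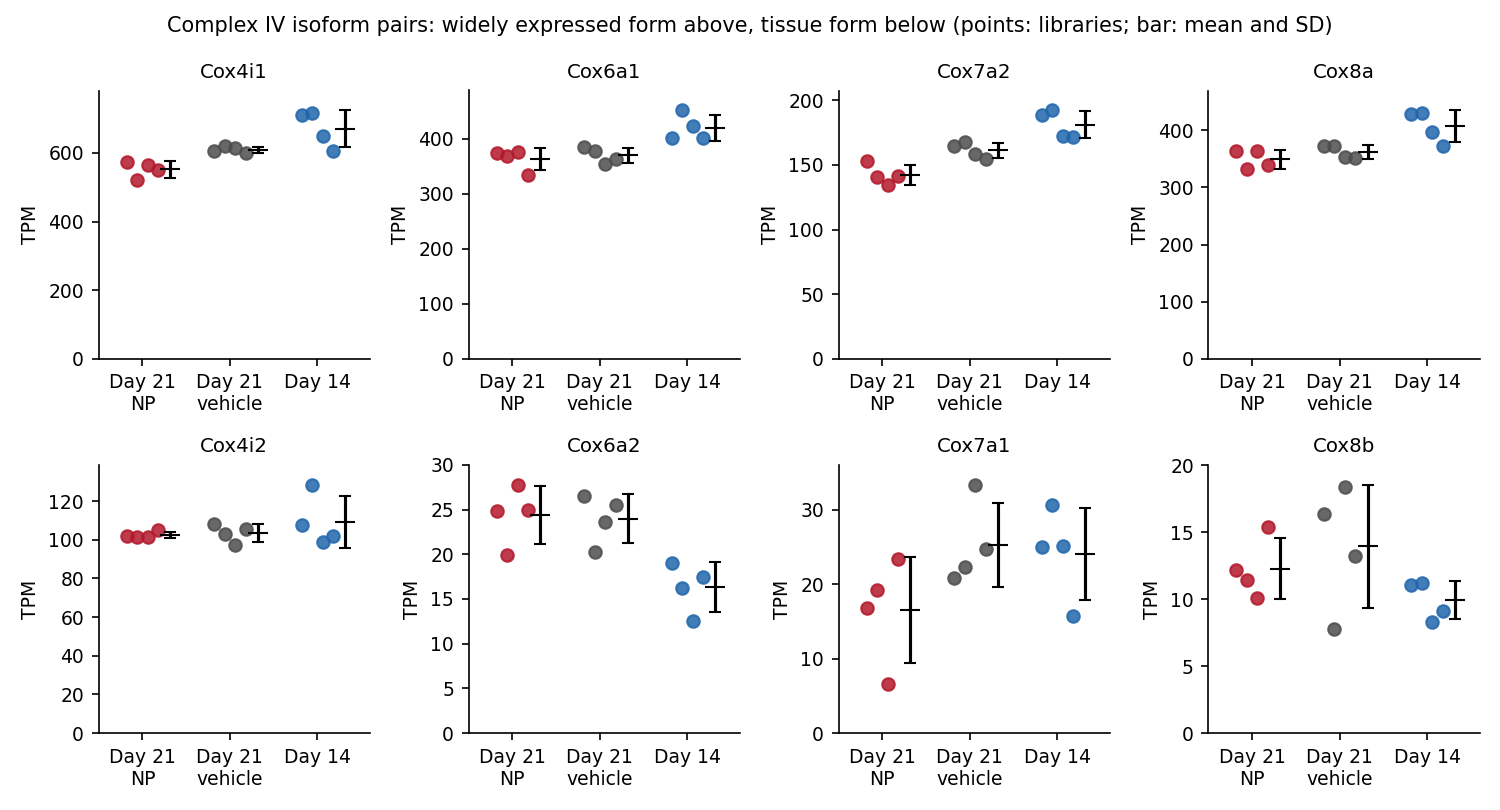
Level in TPM of 4 pairs of complex IV isoforms, the widely expressed form above and the tissue form below, with one point per library and bars for the mean and SD of 4. Cox6a2 is lowest in the Day 14 lungs, where the widely expressed forms are highest.

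Heart muscle is rich in these messages, and its markers were read for that reason. Whether such muscle came from the heart or from within the lung cannot be told from these values. The summed level of 16 heart muscle markers was 260 to 734 TPM in NP lungs, 355 to 715 TPM in vehicle lungs and 408 to 511 TPM in Day 14 lungs, with replicate values of 588.5, 520.1, 260 and 734 TPM in NP lungs. None of the 16 was at 0 in any library: the atrial myosin light chains Myl4 and Myl7 reached 108 and 166 TPM in NP replicate 4. One marker, Csrp3, was called higher in vehicle than in Day 14 lungs (6.25%, against 3.79% of all genes higher). In the other 2 comparisons 0 were called. Against Day 14 the fold change was positive for 15 of the 16 markers in vehicle lungs (median 0.24). It was positive for 12 and negative for 4 in NP lungs (median 0.13). For NP against vehicle lungs 15 were negative and 1 was positive (median −0.092). NP replicate 3 had the lowest heart marker sum of the 12 libraries, and also the lowest Cox7a1. Within its group it had the lowest Cox8b and the lowest mitochondrial sum. Cox6a2 went the other way, with its highest TPM of the 12 libraries in NP replicate 3. The part of heart muscle in the values of Cox6a2, Cox7a1 and Cox8b was not tested. Without NP replicate 3 the NP lungs had 6 mitochondrially encoded members called and a median of 0.22 against Day 14. The share of all genes called rose too, to 16.2% from 14.7%. Skeletal muscle markers summed to at most 4.04 TPM in any library, and Ucp1, the marker of brown fat, to at most 0.080 TPM, with 6 libraries at 0.

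**Figure D4:**
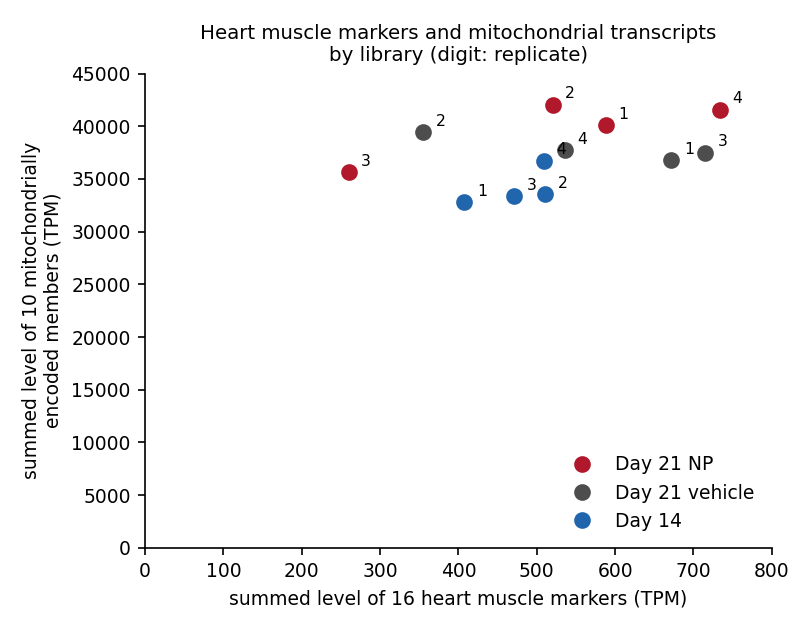
Summed level of 10 mitochondrially encoded members against the summed level of 16 heart muscle markers (both TPM), one point per library with its replicate number. NP replicate 3 stands at the left with 260 TPM of heart markers, and vehicle replicate 2, with 355 TPM, has the highest mitochondrial sum of its group.

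Marker genes of other cell types were read as well. Markers of dividing cells were called lower in both day 21 groups, 8 of 8 in each. Of all genes 8.56% were lower in NP lungs and 6.51% in vehicle lungs. The dividing cell markers summed to 112 to 164 TPM in NP lungs, 131 to 176 TPM in vehicle lungs and 251 to 281 TPM in Day 14 lungs. Of 7 alveolar macrophage markers 1, Ear1, was called higher in each day 21 group (14.3%), and 0 were called lower. Of all genes 6.16% were higher in NP lungs and 3.79% in vehicle lungs. The fold change was negative for 4 of the 7 macrophage markers in NP lungs and 5 in vehicle lungs. Marco was the lowest, at −0.68 in NP lungs and −1.16 in vehicle lungs. The sum of the 7 was 857 to 2335 TPM in NP lungs, 966 to 1037 TPM in vehicle lungs and 1086 to 1590 TPM in Day 14 lungs. The highest value was in NP replicate 3, where Chil3 alone had 1888 TPM. The part of these cells in the nuclear and mitochondrial differences was not tested.

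The size of the difference moved with annotated transcript length, the median over a gene's coding transcripts. This can differ from the message expressed: Ndufs1 was placed at 651 bases, while its effective lengths were 2070 to 2226 bases. The class of a single member is therefore uncertain. Many nuclear members are short by this measure. Of the 15 members of at most 500 bases 11 were called lower in NP lungs (73.3%), against 28 of 206 other genes of that length (13.6%). The median log2 fold change of NP lungs from Day 14 was −0.41 in these 15 members. It was −0.22 in the 38 members of over 500 and up to 750 bases, −0.18 in the 16 of up to 1000 bases, −0.14 in the 17 of up to 1500 bases and −0.13 in the 6 of up to 3000 bases. Over all other genes the medians of the same classes were −0.091, −0.082, −0.076, −0.050 and 0.0015, and 0.046 above 3000 bases. In vehicle lungs the members' medians were −0.19 in the shortest class and −0.088 in the longest, against −0.052 and −0.0054 in other genes of those classes. In the shortest class 1 of 15 members was called lower in vehicle lungs (6.67%), against 17 of 206 other genes (8.25%). Within each class the members' median was the lower one in both comparisons, although the longest class holds 6 members only.

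**Figure D5:**
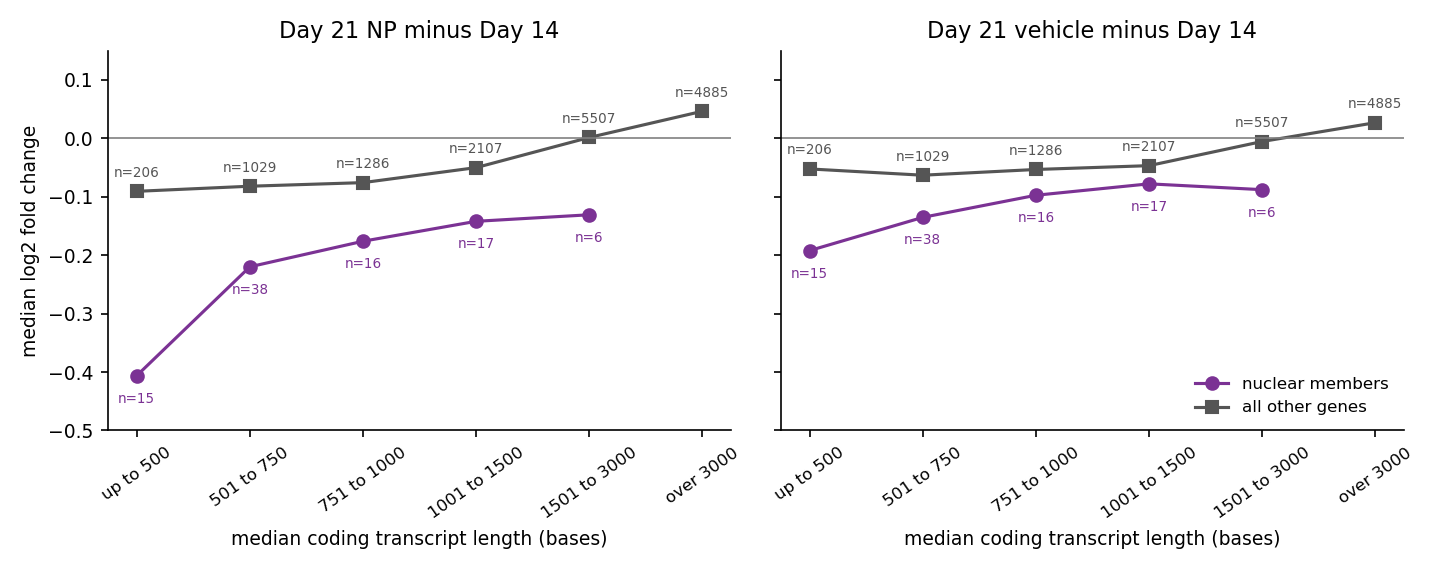
Median log2 fold change from Day 14 by median coding transcript length (bases), for nuclear members and all other genes, in NP lungs (left) and vehicle lungs (right), with the number of genes beside each point. Members lie below other genes in each length class, and the gap is widest at up to 500 bases in NP lungs, −0.41 against −0.091.

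The mean fragment length was implied by the deposited effective lengths of mt-Co1. It was 282 to 303 bases in NP libraries, 275 to 293 bases in vehicle libraries and 268 to 284 bases in Day 14 libraries. The ranges overlapped, but the medians differed, at 290.4 bases in NP, 284.85 in vehicle and 277.2 in Day 14 libraries. Among NP libraries only replicate 3 (281.6 bases) lay below any Day 14 library, which was replicate 4 (283.7 bases). Longer fragments leave fewer reads for short messages at the same abundance, and an effective length per gene and library allows for this. Such lengths were used for 13612 genes, all 106 tested members among them, and other genes stayed unadjusted. The shares of all genes below therefore include unadjusted genes. With such lengths as offsets, 24 nuclear members were lower and 1 higher in NP lungs, 26.9% of 93, with 1798 of all 17909 genes called, against 2636 without the offsets. In vehicle lungs 6 nuclear members were called (6.45%), against 7.12% of all genes. The nuclear medians were −0.19 in NP lungs and −0.11 in vehicle lungs. Both medians kept their sign.

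Other mitochondrial genes were read from lists chosen for their roles. Mitochondrial ribosomal proteins, which build the machinery that translates the 13 messages, were lower in 14 of 78 in NP lungs (17.9%, against 8.56% of all genes lower) and 4 of 78 in vehicle lungs (5.13%, against 6.51%), with medians of −0.14 in NP lungs and −0.11 in vehicle lungs, and included Mrpl34 (−0.38 in NP lungs, −0.30 in vehicle lungs). Of 36 genes for cytochrome c and chain assembly 3 were lower in NP lungs (8.33%) and 2 in vehicle lungs (5.56%), near the shares of all genes that were lower. The complex I assembly factor Timmdc1 was lower in both (−0.33 in NP lungs, −0.30 in vehicle lungs). The complex III factor Uqcc2 differed by −0.47 in NP lungs (adjusted p = 0.00487) and −0.26 in vehicle lungs (0.0745), the complex II factor Sdhaf4 by −0.31 in NP lungs (0.0494) and −0.19 in vehicle lungs (0.228), and the complex IV factor Cox19 by −0.18 in NP lungs (0.0788) and −0.22 in vehicle lungs (0.0459). Of 27 tested genes that transcribe and maintain mitochondrial DNA, 1 was called in NP lungs (3.7%, against 14.7% of all genes) and 0 in vehicle lungs. It was Mterf3, at 0.24 in NP lungs (0.0330) and 0.15 in vehicle lungs (0.166). The mitochondrial transcription factor Tfam differed from Day 14 by 0.076 in NP lungs (adjusted p = 0.368) and 0.045 in vehicle lungs (0.630), and the polymerase Polrmt by −0.075 in NP lungs (0.491) and −0.090 in vehicle lungs (0.415).

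Regulators of mitochondrial biogenesis were mixed. Of 15 tested, 4 were higher and 1 was lower in NP lungs (33.3% called, against 14.7% of all genes). In vehicle lungs 2 were higher and 1 was lower (20.0% called, against 10.3% of all genes). The GA-binding protein subunits Gabpa (0.29 in NP lungs, 0.23 in vehicle lungs) and Gabpb1 (0.23 in NP lungs, 0.25 in vehicle lungs) were higher in both. The deacetylase Sirt1 differed by 0.31 in NP lungs (adjusted p = 0.00915) and 0.18 in vehicle lungs (0.0976), and the coactivator Ppargc1a by 0.41 in NP lungs (0.0466) and 0.36 in vehicle lungs (0.0844). The orphan receptor Esrra differed by −0.20 in NP lungs (0.0417) and −0.059 in vehicle lungs (0.555), and the coactivator Pprc1 by −0.28 in NP lungs (0.0664) and −0.39 in vehicle lungs (0.0237). The citric acid cycle had 1 of 19 lower in each day 21 group (5.26%, against 8.56% of all genes lower in NP lungs and 6.51% in vehicle lungs), the malate dehydrogenase Mdh2 (−0.22 in NP lungs, −0.25 in vehicle lungs). Among 10 tested carriers and creatine kinases 4 were lower in NP lungs (40.0%, against 8.56% of all genes lower). These were the carrier Ucp2 (−0.40), the outer membrane channel Vdac1 (−0.28), the ADP/ATP carrier Slc25a5 (−0.23) and the mitochondrial creatine kinase Ckmt1 (−0.59). In vehicle lungs 3 were lower (30.0%, against 6.51%), Ucp2 (−0.42), Vdac1 (−0.22) and Slc25a5 (−0.26), and Ckmt1 differed by −0.42 (adjusted p = 0.0761). In NP against vehicle lungs 0 genes of these lists were called by edgeR.

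Promoters of nuclear members were searched for motifs known from genes of the respiratory chain. RefSeq promoters (GRCm38.p6, 250 bases before to 50 after a gene's start) were found for 75 of 99 nuclear members. The 10-letter motif of nuclear respiratory factor 1, whose letters are the capitals in the Cox6a1 and Atp5k sequences, stood on either strand in 7 of 75 (9.33%), against 290 of all 27025 genes with a promoter (1.07%) and 2.00% of the other genes tested. AAGATGGCG, a motif of YY1, stood in 8 of 75 (10.7%), against 1.64% of all promoters and 2.99% of the other genes tested. The estrogen-related receptor motif TCAAGGTCA stood in 2 (2.67%, against 0.466% of all and 0.305% of the other tested), the CREB motif TGACGTCA in 4 (5.33%, against 2.03% and 3.30%), and the GA-binding protein motif CCGGAAGTG in 2 (2.67%, against 2.25% and 4.26%). The 5 motifs do not contain one another. A match describes letters in a window and says nothing of binding.

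Of the 36 members with a promoter that were called in NP lungs 5 held the nuclear respiratory factor 1 motif, and of the 38 tested members with a promoter that were not called 2 held it. The YY1 motif stood in 3 of the 36 and 5 of the 38, the estrogen-related receptor motif in 2 and 0, the CREB motif in 3 and 1, and the GA-binding protein motif in 1 and 1. The upstream parts of 3 of these promoters are shown because their genes were called lower in NP lungs, Ndufa11 and Cox6a1 also in vehicle lungs, and Ndufa11 holds 2 motifs. They are the 250 bases before the start, 5′ to 3′ on the gene's strand, from RefSeq in GRCm38.p6, at chr17:56717512-56717761 (+) for Ndufa11, chr5:115348959-115349208 (−) for Cox6a1 and chr5:108434400-108434649 (−) for Atp5k. Capitals mark the nuclear respiratory factor 1 motif and, in Ndufa11 alone, the upstream TGACGTCA.
Ndufa11: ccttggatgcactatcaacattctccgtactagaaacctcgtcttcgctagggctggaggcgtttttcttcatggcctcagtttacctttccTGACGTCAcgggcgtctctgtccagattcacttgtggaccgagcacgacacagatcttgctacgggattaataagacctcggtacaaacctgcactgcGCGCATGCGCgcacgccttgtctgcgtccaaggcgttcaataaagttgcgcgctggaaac
Cox6a1: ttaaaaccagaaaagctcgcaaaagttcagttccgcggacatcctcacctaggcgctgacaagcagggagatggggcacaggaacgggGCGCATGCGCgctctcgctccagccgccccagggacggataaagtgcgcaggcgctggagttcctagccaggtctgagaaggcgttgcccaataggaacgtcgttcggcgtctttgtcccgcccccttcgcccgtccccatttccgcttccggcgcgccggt
Atp5k: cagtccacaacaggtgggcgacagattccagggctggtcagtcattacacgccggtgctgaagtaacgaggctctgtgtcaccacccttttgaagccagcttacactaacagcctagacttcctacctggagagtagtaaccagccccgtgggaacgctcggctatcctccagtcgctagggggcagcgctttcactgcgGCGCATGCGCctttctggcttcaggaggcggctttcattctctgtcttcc
The first base of the nuclear respiratory factor 1 motif lies 60 bases before the start in Ndufa11, 162 before it in Cox6a1 and 50 before it in Atp5k. Ndufa11, an accessory subunit of complex I, had 25.0, 22.8, 25.9 and 20.5 CPM in the NP lungs, 26.0, 24.0, 24.4 and 24.9 CPM in the vehicle lungs and 31.1, 34.4, 30.3 and 26.5 CPM in the Day 14 lungs, and differed from Day 14 by −0.38 on the log2 scale (SE 0.085, adjusted p = 0.0111) in NP lungs. Cox6a1, the widely expressed form of subunit 6a, had 71.7, 71.3, 75.1 and 63.2 CPM in the NP lungs, 76.3, 72.2, 70.6 and 72.8 CPM in the vehicle lungs and 85.1, 93.4, 84.7 and 77.8 CPM in the Day 14 lungs, and its NP difference was −0.28 on the log2 scale (SE 0.065, adjusted p = 0.0137). Atp5k, a small membrane subunit of complex V, had 15.8, 14.0, 13.6 and 13 CPM in the NP lungs, 18.7, 16.4, 15.9 and 16 CPM in the vehicle lungs and 22.3, 22.2, 20.0 and 15.1 CPM in the Day 14 lungs, and its NP difference was −0.49 on the log2 scale (SE 0.11, adjusted p = 0.0119). The NP calls of Cox6a1 and Atp5k were lost with limma on log2(TPM + 0.1) (adjusted p = 0.0671 and 0.0701). For Ndufa11 and Cox6a1 both day 21 groups lay below every Day 14 library, and for Atp5k both day 21 groups overlapped Day 14 replicate 4.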

How the data were processed

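Whole-lung polyadenylated RNA of 12 mice in 3 groups of 4 was sequenced as paired reads. Per the submitters' processing notes, the authors used cutadapt 4.8, FastQC 0.11.8, STAR 2.7.8a, RSEM 1.3.3, MultiQC 1.20 and GRCm38. Their settings, strand included, were not given there. The deposited expected counts are RSEM's estimated counts per gene, per the file headers and processing notes. TPM and FPKM values were likewise deposited by the authors, and FPKM served only with the expected counts to obtain effective lengths.

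Expected counts were tested as deposited with edgeR 4.0.16 in R 4.3.3 (TMM scaling, filterByExpr with a minimum count of 10 and total of 15, robust quasi-likelihood fit of all 3 groups, Benjamini-Hochberg adjustment over 17909 of 55487 genes). limma 3.58.1, DESeq2 1.42.0 and statmod 1.5.0 were used for alternatives, pandas 2.3.3 and matplotlib 3.10.9 under Python 3.11.15 for summaries and figures. The edgeR fit was tested on simulated data. Alternatives were other scalings, library sizes without mitochondrial genes, no filter, DESeq2, limma on log2(TPM + 1) and log2(TPM + 0.1), 2 groups only, a replicate block, each library left out and effective-length offsets, the last chosen after seeing the data. Gene models are GENCODE M21 and promoters RefSeq GRCm38.p6.

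Members and lists were chosen with earlier results of these data known. Named were all mitochondrially encoded members, the 12 nuclear calls of smallest p per direction (the 5 of smallest p where fewer passed), a set of core subunits and tissue isoforms, and up to 4 genes per list. One gene that this rule names is not reported here. Sdhc, Sdhd, Uqcrq, Uqcr11, Atp5a1, Ndufa10, Ndufa11, Atp5k, Tfam, Polrmt and the untested members were chosen after their values were seen. Libraries of one group differed beyond counting noise in all 18 pairs (chi-square per degree of freedom 7.52 to 30.01).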

Additional observations from a re-analysis of the deposited data

Results flagged for a closer look

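In 171 groups of 4 libraries, 9 had a highest or lowest library far from the other 3, and chance alone marks about 1 group in 20. Among members, mt-Nd4 was highest in vehicle replicate 4 at 2854 CPM, with the others at 2668 to 2691 CPM. mt-Atp6 was highest in Day 14 replicate 2 at 730.8 CPM, with the others at 594 to 611 CPM, and the same library had the lowest mt-Nd5 of all libraries. Cox6b1 (70.66 CPM) and Ndufv1 (64.52 CPM) were lowest in vehicle replicate 2, with the others at 73.7 to 74.05 CPM and 65.66 to 65.68 CPM. Ndufa4l2 was lowest in vehicle replicate 1 at 19.77 CPM, where the other 3 lay within 20.01 to 20.04 CPM, and highest in Day 14 replicate 2 at 25.41 CPM, with the others at 18.94 to 20.0 CPM.

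The remaining values were sums over cell type markers. Alveolar macrophage markers reached 2335 TPM in NP replicate 3, with the others at 857 to 1110 TPM, and 1590 TPM in Day 14 replicate 1, with the others at 1086 to 1104 TPM. Lung cell markers reached 159300 TPM in NP replicate 4.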

How the results depend on the processing

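All medians kept their sign in every setting and without each library. Among vehicle lungs against Day 14, 9 nuclear calls (9.68%, against 10.3% of all genes) became 3 with upper-quartile scaling (all genes 10.2%), 5 without a filter (4.31%), 17 with DESeq2 (18.3%, against 16.3%), 5 with limma on log2(TPM + 1) (5.12%), 2 on log2(TPM + 0.1) (1.3%) and 5 with the 2 groups alone (10.2%), and 1 to 25 without single libraries. The 2 mitochondrial calls became 4 with DESeq2, 1 with limma on log2(TPM + 0.1), and 0 to 2 without single libraries. Among NP lungs against Day 14, 46 nuclear calls (all genes 14.7%) became 54 with DESeq2 (20.2%) and 38 without a filter (5.87%). They became 26 with limma on log2(TPM + 1) (7.87%) and 16 on log2(TPM + 0.1) (2.56%). There were 22 with the 2 groups alone (9.58%), 25 with effective-length offsets (1798 of 17909 genes) and 23 to 57 without single libraries. The 4 mitochondrial calls became 6 with DESeq2, 5 with limma on log2(TPM + 1) and 2 with the 2 groups alone. They became 3 without a filter, with limma on log2(TPM + 0.1), with the replicate block and with the offsets. Without single libraries they were 2 to 6, being 2 without NP replicate 2 or 4 or Day 14 replicate 1 or 3. The mitochondrial median of 0.14 became 0.233 in both limma fits and 0.232 with the offsets. The share of all genes called moved too in most of these settings, so a shift in the members' count is not read as a result about them. The cause of these shifts was not tested. Without single libraries the nuclear median spanned −0.24 to −0.15 in NP lungs and −0.17 to −0.078 in vehicle lungs, and the mitochondrial median 0.107 to 0.215 and 0.0855 to 0.158. For NP against vehicle they spanned −0.10 to −0.076 and 0.029 to 0.111, with 0 calls in each setting. A p over the threshold between NP and vehicle does not show that values did not differ.

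Replicate numbers name different mice. Each gene's log2 level was taken as its deviation from the group mean, and these deviations were correlated between libraries of different groups. The correlations were −0.136 to 0.235 for same-numbered libraries and −0.231 to 0.217 for others. With the replicate number as a block there were 43 nuclear and 3 mitochondrial calls in NP lungs against Day 14 (46.2% and 23.1%, against 13.5% of all genes). In vehicle lungs against Day 14 there were 7 and 2 (7.53% and 15.4%, against 9.34% of all genes). In NP against vehicle lungs there were 0 and 0 (0% of all genes).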
